A study of Mus musculus with 12 samples.

Results

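Translation factors and aminoacyl-tRNA synthetases make up the machinery that turns messenger RNA into protein. Members were the genes listed in both deposited comparison tables whose symbol begins with Eif1 to Eif6, Eef1 or Eef2, or has the form of a synthetase symbol such as Nars or Yars2, together with Tpt1 and, where listed, Eprs. The rule found 44 of 6429 genes, and Eprs was not among them. By role they comprised 26 genes named for initiation factors, 6 of elongation, 8 cytosolic synthetases, 3 mitochondrial synthetases and Tpt1.

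Initiation factors load the small ribosomal subunit with initiator tRNA and bring it to the capped end of a messenger RNA, where it searches for the start codon. Elongation factors then deliver charged tRNAs and move the ribosome along, and each synthetase charges its tRNAs with one amino acid. Cells that divide need much new protein, and crypts hold the dividing cells of the intestinal lining, whereas villi are lined by differentiated cells, most of them absorptive enterocytes. Many of these genes are known for coordinated control by growth signals through mTORC1 and MYC, and several synthetases are known targets of ATF4 in the integrated stress response.

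RNA polymerase II (Pol II) was mapped by chromatin immunoprecipitation and sequencing (ChIP-seq) in adult mouse duodenal epithelium, with 3 libraries each from wild-type (WT) villus, WT crypt and villus of mice labelled Hnf4αγ DKO, a double knockout of the transcription factors HNF4A and HNF4G. DKO mice received tamoxifen at 50 mg/kg/day for 2 days and were killed 1 day after the last dose, WT mice received the ethanol and corn oil vehicle, and EDTA was applied for 25 minutes to mutant and 35 minutes to WT tissue. Between WT and DKO, the effects of genotype, of tamoxifen and of EDTA time cannot be told apart. Age beyond "adult", the Cre driver, and whether the libraries came from separate animals are not given in the sources used here, so p-values measure only the spread between libraries. The study asked how Pol II binding differs along the crypt-villus axis and where it depends on HNF4.

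The members are described from the authors' deposited DESeq2 tables, which list for each gene its mean Pol II signal across libraries, in size-factor-normalised counts, with a log2 fold change, the SE of that change (standard error, after ±) and an adjusted p. The signal of each group was rebuilt from this mean and both fold changes, assuming that each group held as many libraries as the others. It carries the error of the fold changes. An order of groups read from it is one of point values and is not a test. A gene was called at a DESeq2 adjusted p under 0.05 over all 6429 genes. Values per library were not analysed here, so the overlap of libraries between groups is not given. Mean signals of the members lay between 56.0 and 726 (median 170), where the median over all genes was 144. Such counts are not levels per length, and single genes are not ranked by them, because the counted window and its length are not stated.

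At the targeted genes the authors' deposited table gave more Pol II in the libraries labelled DKO, with log2 fold changes of WT over labelled-DKO villus of -0.54 ± 0.14 for Hnf4a and -1.45 ± 0.22 for Hnf4g, both called. The label is therefore kept as "labelled-DKO", and each direction between genotypes rests on it. Cell type markers followed the tissue labels between the WT groups. All 11 listed enterocyte markers were higher in villus than crypt (median log2 fold change 1.55), and of 12 crypt stem and dividing cell markers the 4 in the tables were all called higher in crypt. All 11 enterocyte markers also had more Pol II in WT than in labelled-DKO villus (median 2.44), whereas 2 of the 4 crypt markers, Pcna and Ccnd1, were called higher in labelled-DKO villus. Axin2 (-0.38) and Sox9 (0.26) were not called between the genotypes. Of 5 listed goblet and Paneth cell markers, 3 were called toward villus and 2 toward crypt, and 2 toward labelled-DKO villus. Of the immune markers 3 of 8 were listed, with Cd74 called higher in villus and in WT, and of 6 mesenchyme markers 0 were listed. The part of cell composition in the results below was not tested. In these bulk libraries, fewer cells of a type and less Pol II per cell cannot be told apart.

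Short stretches of sequence are shown first for members to which the results return. RefSeq promoter windows of build GRCm38.p6, from 250 bases before to 50 after the annotated start, were found for 35 of the 44 members and for 5161 of all tested genes. The amino acid response element bound by ATF4 with C/EBP partners was searched as TGATGNAA on both strands. It occurred in 2 members, Yars and Aars (5.71%), against 2.64% of tested genes. At Yars it begins at base 4 of the annotated transcript, and at Aars at 112 bases before the start on the other strand, where its reverse complement is read, with a second match at base 10. The E-box CACGTG, bound by MYC and related factors and its own reverse complement, occurred in 10 of 35 members (28.6%) against 11.6% of tested genes. The letters CAAAGTCCA, an HNF4 motif, were found in 0 of 35 members and in 0.814% of tested genes. With so rare a match, 0 of 35 cannot show that the members lack HNF4 sites. Variants of the motif and sites outside the promoter windows were not searched. Capitals mark the motif, and all sequences run 5′ to 3′ in the gene's direction.
Yars, chr4:129189863-129189922, + strand: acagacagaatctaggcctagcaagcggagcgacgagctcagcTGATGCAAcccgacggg
Aars, chr8:111033717-111033756, + strand: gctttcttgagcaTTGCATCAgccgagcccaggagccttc
Eif4g1, chr16:20672662-20672701, + strand: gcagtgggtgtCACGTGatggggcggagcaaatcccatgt
Eef2, chr10:81176571-81176610, + strand: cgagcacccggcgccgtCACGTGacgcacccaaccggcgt

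Messenger RNAs of many translation factors are known to begin with an oligopyrimidine tract, a C followed by further C or T bases, through which mTORC1 and LARP1 control their translation. A C and at least 4 pyrimidines, beginning within 5 bases of the annotated start, was searched as such a tract. It was found in 8 of 35 members (22.9%), close to the 24.4% of all tested genes. The search rests on annotated starts, which need not be those used in this tissue. It therefore cannot show how many members have messages with such a tract. With the C required at the annotated start itself, 1 member remained, Eif3f, and 3.18% of tested genes. Stretches around the annotated starts of Eif3f and Eef1a1 are shown from 20 bases before, with the matched pyrimidine run in capitals. In both the run begins before the annotated start, and whether it opens the messenger RNA was not tested.
Eif3f, chr7:108934395-108934434, + strand: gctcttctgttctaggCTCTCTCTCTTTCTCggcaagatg
Eef1a1, chr9:78481705-78481744, - strand: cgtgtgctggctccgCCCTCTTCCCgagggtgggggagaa

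Between WT villus and WT crypt, most of the called members carried more Pol II in crypt. Of 44 members 23 were called, where 37.4% of all genes were. The authors' deposited table called 20 of 44 members (45.5%) higher in crypt, where 18.8% of all genes were called in that direction. It called 3 members (6.82%) higher in villus, namely Eif1, Eif6 and Iars2, against 18.6% of all genes. The remaining 21 members did not pass. The differences were moderate: called log2 fold changes of villus over crypt ran from -0.86 to -0.35 and from 0.49 to 0.69, and 0 members lay beyond 1 in either direction, whereas 4.43% of all genes were called with a change beyond 1. Each group's centre lay below that of all genes, whose median was -0.04. The medians were -0.56 for the elongation genes, -0.26 for the cytosolic synthetases and -0.21 for the genes named as initiation factors.

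Most called members also carried more Pol II in villi labelled DKO than in WT villi. In this comparison 27 of 44 members were called, where 51.9% of all genes were. The authors' deposited table called 26 members (59.1%) higher in labelled-DKO villus, where 29.5% of all genes were called in that direction, and Iars2 alone (2.27%) higher in WT villus, against 22.4% of all genes. The other 17 members did not pass. Called log2 fold changes of WT over labelled-DKO villus ran from -0.89 to -0.30, with Iars2 at 0.45. Medians were -0.52 for elongation, -0.44 for the cytosolic synthetases and -0.33 for the initiation genes, against -0.08 over all genes. Centring on that last median left 21 members higher in labelled-DKO villus, against 22.1% of all genes, and 2 higher in WT villus (Iars2 and Eif4h). The calls of Eef1a1, Eif3f, Eif4a1, Eif4a2 and Eif4a3 were lost. The comparisons share the WT villus libraries, so a low or high WT villus signal moves a member in the same direction in both.

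**Figure D1:**
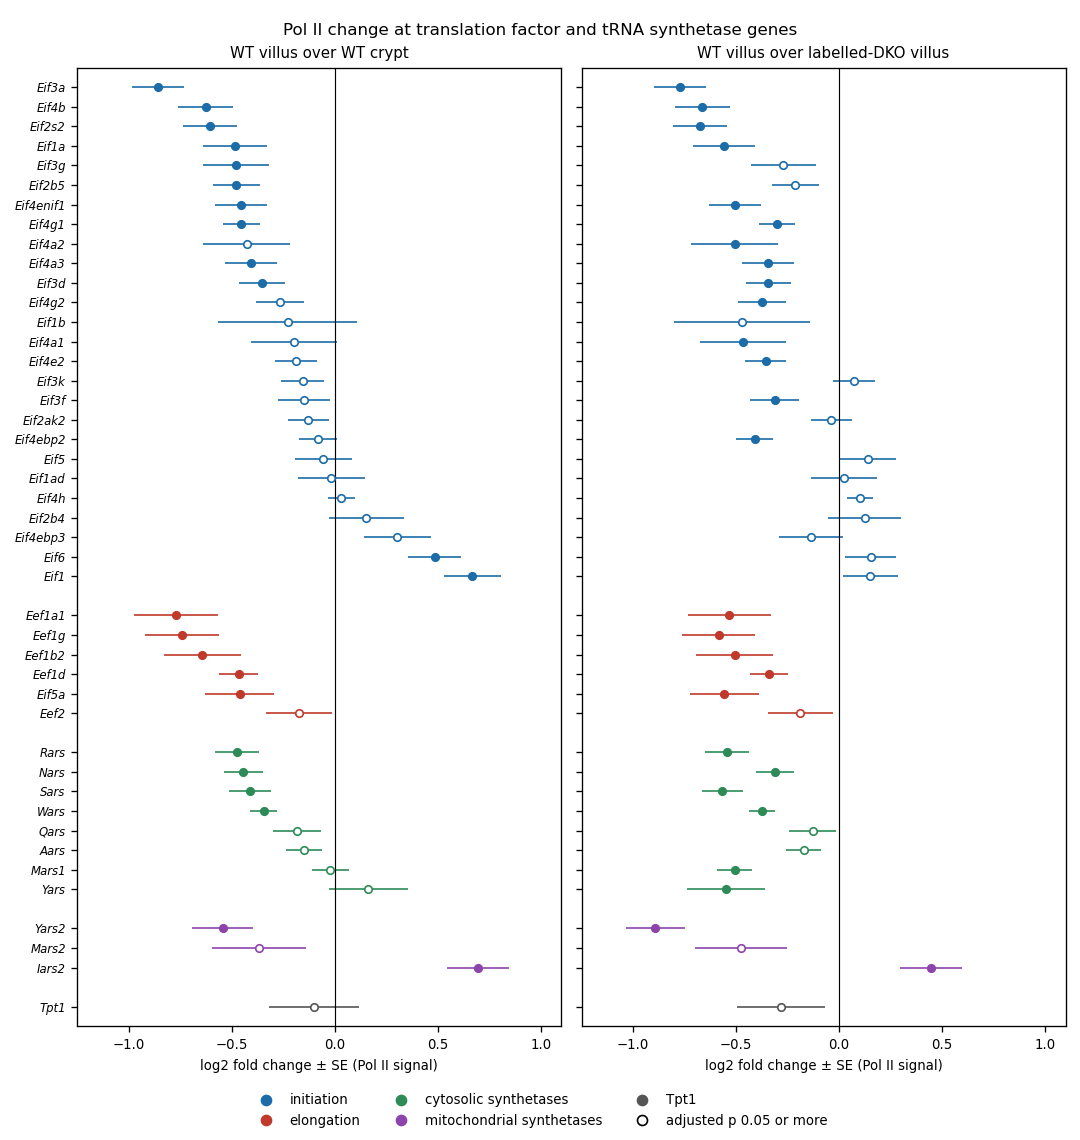
Log2 fold change of Pol II signal (points, with bars of 1 SE) for each of the 44 members, for WT villus over WT crypt on the left and WT villus over labelled-DKO villus on the right, coloured by role; open points had an adjusted p of 0.05 or more. Filled points lie below 0 except Eif1, Eif6 and Iars2 on the left and Iars2 on the right.

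Among the factors that select the start codon, the members differed in direction. Eif1 encodes the small factor that guards against wrong start codons. Its rebuilt signal was 222 in WT villus, 200 in labelled-DKO villus (199.7) and 140 in WT crypt (139.7), so that crypt was lowest. The authors' deposited tables gave a 1.59-fold higher signal in villus than crypt (log2 fold change 0.67 ± 0.14, DESeq2 adjusted p 1.65e-05) and no call between the genotypes (0.15 ± 0.13, DESeq2 adjusted p 0.346). Eif1a, for eIF1A, the partner of eIF1 on the small subunit, went the other way. Its deposited log2 fold changes were -0.48 ± 0.15 against crypt and -0.56 ± 0.15 against labelled-DKO villus, both called. Eif1b, the close paralog of Eif1, had a mean signal of only 58.6 and an SE of 0.34 between villus and crypt, and neither of the authors' deposited tables called it. Eif5, which triggers GTP hydrolysis by eIF2, was also not called in either. Nor was Eif1ad, which is placed here by its name and not by a known part in start codon selection.

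The eIF2 complex carries the initiator tRNA, and eIF2B recharges it with GTP. Eif2s2, for the beta subunit of eIF2, had rebuilt signals of 238 in WT crypt, 156 in WT villus and 250 in labelled-DKO villus (249.7). WT villus was the low group. The authors' deposited tables placed it 1.52-fold higher in crypt (-0.61 ± 0.13, DESeq2 adjusted p 3.68e-05) and 1.60-fold higher in labelled-DKO villus (-0.68 ± 0.13, DESeq2 adjusted p 1.43e-06). Eif2b5, the catalytic subunit of eIF2B, was called higher in crypt in the authors' deposited table, at -0.48 ± 0.12. It was not called between the genotypes, at -0.21 ± 0.11 with a DESeq2 adjusted p of 0.108. Eif2b4, another subunit, was called in neither.

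The eIF3 complex is the scaffold of initiation on the small subunit. Eif3a, its largest subunit, showed the largest crypt-high difference of all members. Rebuilt signals at Eif3a were 368 in WT crypt, 203 in WT villus and 346 in labelled-DKO villus, again with WT villus as the low group. In the authors' deposited tables the gene was 1.82-fold higher in crypt than villus (-0.86 ± 0.13, DESeq2 adjusted p 3.74e-10) and 1.71-fold higher in labelled-DKO than WT villus (-0.77 ± 0.13, DESeq2 adjusted p 1.03e-08). Of the 5 eIF3 genes, 3 were called higher in crypt (Eif3a, Eif3d and Eif3g) and 3 higher in labelled-DKO villus (Eif3a, Eif3d and, without centring, Eif3f). Of all genes, 18.8% and 29.5% were called in those directions. Eif3k was called in neither of the authors' deposited tables, at -0.16 ± 0.10 and 0.07 ± 0.10. In mm9 coordinates Eif3a spans chromosome 19 from 60837019 to 60866596 and contains Snora19 and Mir3084-2 on its own strand.

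Of the 6 genes for eIF4 helicases, scaffolds and helicase stimulators, 2 were called higher in crypt and 5 higher in labelled-DKO villus. Of all genes, 18.8% and 29.5% were called in those directions. Of the 5, 3 (Eif4b, Eif4g1 and Eif4g2) were also called after centring, as were 22.1% of all genes. Eif4b, which stimulates the helicase eIF4A, had rebuilt signals of 244 in WT crypt, 158 in WT villus and 250 in labelled-DKO villus (250.4). Its deposited differences were 1.54-fold toward crypt (-0.63 ± 0.13, DESeq2 adjusted p 2.01e-05) and 1.58-fold toward labelled-DKO villus (-0.66 ± 0.13, DESeq2 adjusted p 2.66e-06). Eif4g1, the scaffold that joins cap, helicase and eIF3, and a bearer of the E-box shown above, was called in both of the authors' deposited tables, at -0.45 ± 0.09 and -0.30 ± 0.09. The helicase genes Eif4a1 and Eif4a2 and the scaffold relative Eif4g2 were called between the genotypes, where the authors' deposited table gave -0.47 ± 0.21, -0.51 ± 0.21 and -0.37 ± 0.12. Against crypt the same genes stood at -0.20 ± 0.21, -0.43 ± 0.21 and -0.27 ± 0.12 in the authors' deposited table. Whether these changes differed between the comparisons is tested by labelled-DKO villus against crypt, where none of the 3 passed. Eif4h, another stimulator of eIF4A, had the smallest SE of all members, 0.06, and was called in neither.

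Of the 5 members that restrain initiation or act on eIF4E or eIF2, 1 was called higher in crypt and 3 higher in labelled-DKO villus. Of all genes, 18.8% and 29.5% were called in those directions, so the 1 of 5 is near the share of all genes. Eif4ebp2 encodes a 4E-BP, which holds the cap-binding protein eIF4E inactive until mTORC1 phosphorylates it. Its rebuilt signals were 236 in WT crypt, 223 in WT villus and 297 in labelled-DKO villus, with labelled-DKO villus the highest. Against crypt labelled-DKO villus was not called (0.33 ± 0.13, adjusted p 0.0687 from the DESeq2 values). The authors' deposited tables gave -0.08 ± 0.09 against crypt (DESeq2 adjusted p 0.538) and -0.41 ± 0.09 against labelled-DKO villus (DESeq2 adjusted p 2.51e-05). Eif4ebp3, a second 4E-BP gene, had rebuilt signals of 111 in WT crypt, 137 in WT villus and 151 in labelled-DKO villus. It passed in neither of the authors' deposited tables, at 0.30 ± 0.16 (DESeq2 adjusted p 0.132) and -0.14 ± 0.15 (DESeq2 adjusted p 0.468). Eif4e2, a cap-binding protein that represses translation of some messages, was called higher in labelled-DKO villus, at -0.36 ± 0.10 in the authors' deposited table. Eif4enif1, for the protein that carries eIF4E into the nucleus, was called in both, at -0.46 ± 0.13 and -0.51 ± 0.13. Eif2ak2 encodes PKR, the interferon-induced kinase that inhibits eIF2, and its rebuilt signals of 214, 196 and 201 in WT crypt, WT villus and labelled-DKO villus lay close together. The authors' deposited tables gave -0.13 ± 0.10 and -0.04 ± 0.10 for Eif2ak2, with DESeq2 adjusted p-values of 0.336 and 0.775.

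Eif6 and Eif4a3 also bear eIF names but act mainly elsewhere. Eif6 keeps the large ribosomal subunit from joining too early and takes part in its maturation. Its rebuilt signals were 201 in WT villus, 181 in labelled-DKO villus and 144 in WT crypt, with crypt the lowest. The difference of labelled-DKO villus from crypt was not called (0.33 ± 0.18, adjusted p 0.238 from the DESeq2 values). The authors' deposited tables gave 0.49 ± 0.13 for villus over crypt (1.40-fold, DESeq2 adjusted p 0.000849) and 0.15 ± 0.13 for WT over labelled-DKO villus (DESeq2 adjusted p 0.307). Eif4a3, a core of the exon junction complex on spliced messages, followed the larger group in the authors' deposited tables, at -0.41 ± 0.13 and -0.34 ± 0.12, both called, the second not after centring.

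**Figure D2:**
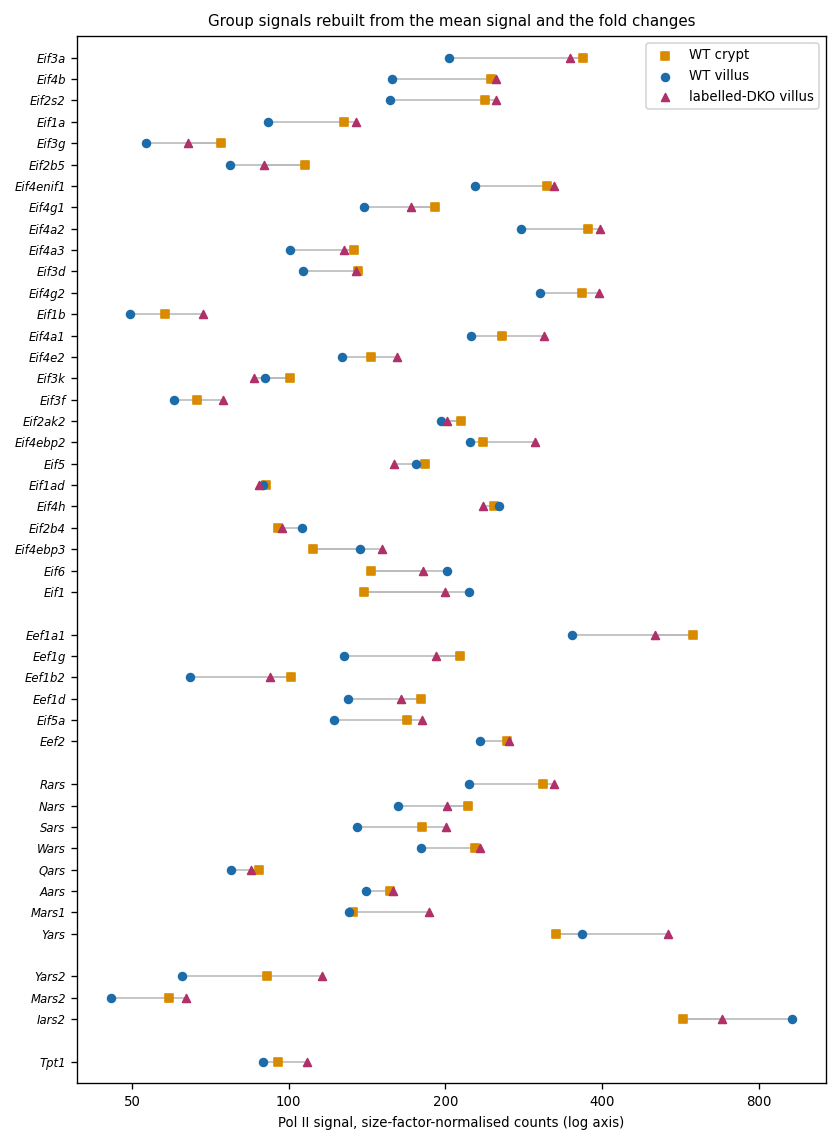
Pol II signal of each member in WT crypt (squares), WT villus (circles) and labelled-DKO villus (triangles), in size-factor-normalised counts on a log axis, rebuilt from the deposited mean signal and fold changes with groups taken as equal in size. WT villus is the lowest group at Eif3a (203), Eif4b (158) and Eef1a1 (350), and the highest at Iars2 (925).

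Most elongation genes changed in both comparisons. The authors' deposited tables called 5 of 6 genes higher in crypt than villus and 5 of 6 higher in labelled-DKO than WT villus. Of all genes, 18.8% and 29.5% were called in those directions. Eef1a1 encodes eEF1A, which delivers charged tRNA to the ribosome. Rebuilt signals at Eef1a1 were 597 in WT crypt, 350 in WT villus (349.9) and 506 in labelled-DKO villus. Crypt was highest and WT villus lowest. The authors' deposited tables gave a 1.71-fold difference toward crypt (-0.77 ± 0.20, DESeq2 adjusted p 0.000824) and a 1.45-fold difference toward labelled-DKO villus (-0.53 ± 0.20, DESeq2 adjusted p 0.0198). The second call was lost after centring on the median of all genes (adjusted p 0.0542). Eef1a1 lies in mm9 on chromosome 9 from 78326261 to 78329531, and near-identical copies of this gene elsewhere can take or lose reads.

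Eef1b2, Eef1d and Eef1g encode subunits of eEF1B, which reloads eEF1A with GTP. Eef1g had rebuilt signals of 214 in WT crypt, 128 in WT villus and 192 in labelled-DKO villus. In the authors' deposited tables it was 1.67-fold higher in crypt (-0.74 ± 0.18, DESeq2 adjusted p 0.000216) and also higher in labelled-DKO villus (-0.58 ± 0.18, DESeq2 adjusted p 0.00292). Eef1b2 stood at 101, 64.6 and 91.9 in the same order of groups. Its deposited differences were 1.56-fold (-0.64 ± 0.19, DESeq2 adjusted p 0.00257) and 1.42-fold (-0.51 ± 0.18, DESeq2 adjusted p 0.0141). Eef1d was called in both of the authors' deposited tables as well, at -0.47 ± 0.09 and -0.34 ± 0.09.

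Eif5a, for the factor that keeps ribosomes moving through difficult peptide bonds such as runs of proline, had rebuilt signals of 169 in WT crypt, 122 in WT villus and 180 in labelled-DKO villus (180.1). Both of its deposited differences were called, at -0.46 ± 0.17 (DESeq2 adjusted p 0.0203) and -0.56 ± 0.17 (DESeq2 adjusted p 0.00249). Eef2, which drives translocation of the ribosome and has an E-box in its promoter window, was the exception. It stood at 263 in WT crypt, 233 in WT villus and 265 in labelled-DKO villus, and the authors' deposited tables gave -0.17 ± 0.16 (DESeq2 adjusted p 0.421) and -0.19 ± 0.16 (DESeq2 adjusted p 0.324). Tpt1 encodes the translationally controlled tumour protein, a growth-linked protein whose message is a classical oligopyrimidine message. Its rebuilt signals were 95.5 in WT crypt, 89.1 in WT villus and 108 in labelled-DKO villus. Neither of the authors' deposited tables called Tpt1, with -0.10 ± 0.22 (DESeq2 adjusted p 0.754) and -0.28 ± 0.21 (DESeq2 adjusted p 0.268).

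Cytosolic synthetases fell into 3 patterns. Rars (arginine), Nars (asparagine), Sars (serine) and Wars (tryptophan) were called higher in crypt and also higher in labelled-DKO villus. Rars had rebuilt signals of 308 in WT crypt, 222 in WT villus and 323 in labelled-DKO villus. The authors' deposited tables gave Rars 1.39-fold toward crypt (-0.47 ± 0.11, DESeq2 adjusted p 7.47e-05) and 1.46-fold toward labelled-DKO villus (-0.54 ± 0.11, DESeq2 adjusted p 1.87e-06). Sars, at 180.0, 135 and 200.3 in the same order, was 1.33-fold (-0.41 ± 0.10, DESeq2 adjusted p 0.000307) and 1.48-fold higher (-0.57 ± 0.10, DESeq2 adjusted p 8.73e-08) in the authors' deposited tables. Nars, at 221, 162 and 201, had deposited log2 fold changes of -0.44 ± 0.09 (DESeq2 adjusted p 2.27e-05) and -0.31 ± 0.09 (DESeq2 adjusted p 0.00252). Wars, a gene also known for induction by interferon gamma, had narrow errors in the authors' deposited tables, at -0.35 ± 0.07 and -0.38 ± 0.06.

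Mars1 (methionine) and Yars (tyrosine) were not called between the WT groups, but passed between the genotypes, toward labelled-DKO villus. Their highest rebuilt signal was in labelled-DKO villus, as it also was for Rars, Sars, Wars and Aars. Mars1 had rebuilt signals of 133 in WT crypt, 131 in WT villus and 186 in labelled-DKO villus. The WT groups lay side by side, at -0.02 ± 0.09 in the authors' deposited table (DESeq2 adjusted p 0.876), and the labelled-DKO villi were 1.42-fold above WT villi (-0.51 ± 0.08, DESeq2 adjusted p 1.99e-08). Yars had rebuilt signals of 327 in WT crypt, 366 in WT villus and 535 in labelled-DKO villus, with labelled-DKO villus again the high group. The authors' deposited tables gave 0.16 ± 0.19 against crypt (DESeq2 adjusted p 0.543) and -0.55 ± 0.19 against labelled-DKO villus (1.46-fold, DESeq2 adjusted p 0.00945). Yars carries the response element shown above, and S100pbp starts 176 bp away on the opposite strand. Aars (alanine), which has the same motif, and Qars (glutamine) were called in neither of the authors' deposited tables, with Aars at -0.15 ± 0.09 and -0.17 ± 0.09.

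Of the 3 mitochondrial synthetases, Yars2 and Iars2 were called, in opposite directions. Yars2, which charges mitochondrial tyrosine tRNA, had rebuilt signals of 90.9 in WT crypt, 62.4 in WT villus and 116 in labelled-DKO villus. It had the largest difference of all members between the genotypes, 1.85-fold in the authors' deposited table (-0.89 ± 0.14, DESeq2 adjusted p 2.58e-09), and was 1.46-fold higher in crypt than villus (-0.54 ± 0.15, DESeq2 adjusted p 0.00111). Mars2, an intronless gene with a mean signal of 56.0, was called in neither table.

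Iars2, for the mitochondrial isoleucine synthetase, was called toward WT villus in both comparisons. Its rebuilt signals were 925 in WT villus, 679 in labelled-DKO villus and 572 in WT crypt, so WT villus was the high group. The authors' deposited tables gave 0.69 ± 0.15 for villus over crypt (1.62-fold, DESeq2 adjusted p 3.84e-05) and 0.45 ± 0.15 for WT over labelled-DKO villus (DESeq2 adjusted p 0.00783). In mm9 Iars2 occupies chromosome 1 from 187110521 to 187153280 on the minus strand. The starts of the microRNA genes Mir194-1 and Mir215 lie inside it on the opposite strand, at 187137198 and 187137460, which is 16.1 and 15.8 kb from the start of Iars2. Both microRNAs are known as abundant products of the intestinal epithelium. Neither has a row of its own in the comparison tables, and no strand option is recorded for the counting. Pol II on Iars2 and on the microRNA transcript cannot be told apart. The mature sequences from RefSeq (GRCm38.p6, chromosome 1, + strand) are given with the seed, bases 2 to 8, in capitals, to show which microRNAs share the locus.
mmu-miR-194-5p: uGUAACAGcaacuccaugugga
mmu-miR-215-5p: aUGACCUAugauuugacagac

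Neighbouring starts bear on other members too. A gene on the opposite strand starts within 1000 bp upstream of 9 members, Eef1b2, Eef1d, Eif1a, Eif1ad, Eif2b4, Eif3k, Tpt1, Wars and Yars. Ndufs1, a complex I subunit gene, starts 9 bp from Eef1b2 and was called with it in the authors' deposited tables, at -0.42 ± 0.10 and -0.24 ± 0.10. Tmed7, 169 bp from Eif1a, likewise stood at -0.56 ± 0.12 and -0.48 ± 0.12 in the authors' deposited tables. Tigd5, 179 bp from Eef1d, was not called in either, at -0.02 ± 0.17 and 0.33 ± 0.17. Banf1, near Eif1ad, was called toward labelled-DKO villus alone (-0.37 ± 0.20 and -0.45 ± 0.19). So was Snx17, near Eif2b4 (-0.01 ± 0.16 and -0.37 ± 0.16), while Eif1ad and Eif2b4 were called in neither. Gm4285, near Tpt1, was uncalled at 0.32 ± 0.18 and 0.36 ± 0.17, opposite in sign to Tpt1. The neighbours of Eif3k, Wars and Yars are not listed. Without members whose span meets another named promoter window, 33 members remained. Of these, 16 were called higher in crypt and 21 higher in labelled-DKO villus, against 18.3% and 29.3% of the 5121 genes kept by the same rule. Iars2 is among those left out.

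Labelled-DKO villus was set against WT crypt to ask which members differed between these groups, by subtracting the log2 fold changes of the authors' deposited tables and giving the result the largest SE it can have. Mars1 alone passed (2.27% of members), at 0.48 ± 0.12 and an adjusted p of 0.00155 from the DESeq2 values, while 13.6% of all genes were called in either direction and 6.41% higher in labelled-DKO villus. In the direction of crypt 0 members passed, against 7.19% of all genes, and 0 had an unadjusted p under 0.05, against 11.9% of all genes. In the direction of labelled-DKO villus 5 members had one (Mars1, Yars, Eif1, Eif4ebp2 and Eif4ebp3), against 12.8% of all genes, a share near that of the members. Yars stood at 0.71 ± 0.27 with a 95% interval of 0.18 to 1.24 (adjusted p 0.0572 from the DESeq2 values), and Eif1 at 0.52 ± 0.19 (adjusted p 0.0543 likewise). Both passed when genes with a mean signal under 100 were left out, at 0.0449 and 0.0426, which made 3 of 32 members against 9.49% of the genes kept. For Eef1a1 the interval ran from -0.80 to 0.33 and for Eif3a from -0.44 to 0.26. An SE rebuilt from the shared fit raised the count to 7, all higher in labelled-DKO villus, namely these 5 with Eif6 and Yars2, against 15.6% of all genes in that direction, again near the members' share.

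**Figure D3:**
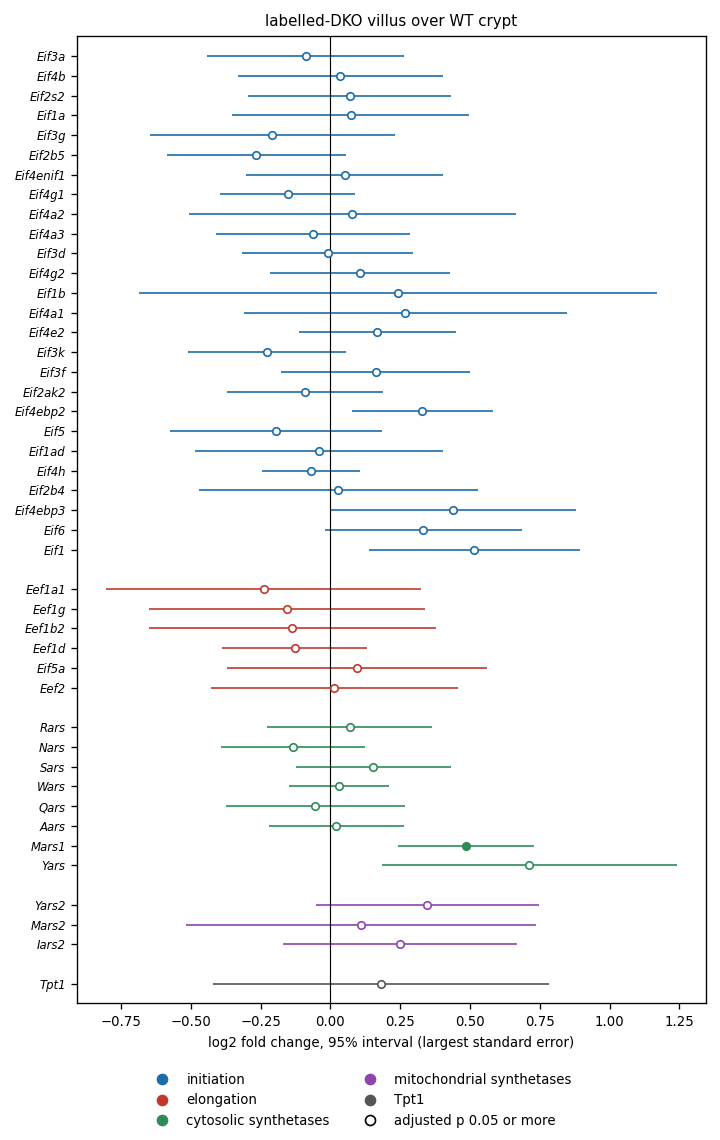
Log2 fold change of Pol II signal in labelled-DKO villus over WT crypt for each member, with 95% intervals from the largest possible standard error, coloured by role; open points had an adjusted p of 0.05 or more. Mars1, at 0.48, is the single filled point, and most elongation and initiation genes have intervals that include 0.

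Other genes of the pathway were read from lists of known function. A list of termination, recycling and poly(A)-binding factors, which also held Pdcd4, had 7 of 15 genes in the tables. The authors' deposited tables called 4 of these higher in crypt, against 18.8% of all genes, and 0 higher in villus. Between the genotypes 4 were higher in labelled-DKO villus, against 29.5% of all genes. Pelo, a ribosome rescue factor, was the 1 higher in WT, at 0.73 ± 0.29, against 22.4% of all genes. Pabpc1, the main cytoplasmic poly(A)-binding protein, stood at -0.59 ± 0.14 and -0.55 ± 0.14 in the authors' deposited tables. Pdcd4, an inhibitor of eIF4A and not a factor of these kinds, had the largest differences of this list, at -0.69 ± 0.20 and -1.34 ± 0.20. The other genes called in those directions were Etf1, Pabpc1 and Pabpc4. Only 3 of 11 mitochondrial translation factors and 2 of 7 other aminoacylation genes were listed. Of these, Mtrf1l was called higher in crypt (-0.34 ± 0.12) and Mtif3 higher in labelled-DKO villus (-0.31 ± 0.11).

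Of 26 mTORC1 pathway genes 16 were listed. The authors' deposited tables called 6 higher in crypt and 10 higher in labelled-DKO villus, against 18.8% and 29.5% of all genes. Toward WT villus, 0 of the 16 passed in either comparison, against 18.6% and 22.4% of all genes. The medians of -0.17 and -0.43 stand against -0.04 and -0.08 over all genes. Larp1, whose protein binds oligopyrimidine messages, had the largest crypt-high difference of the list (-0.67 ± 0.10), and Rps6, a ribosomal protein phosphorylated downstream of mTORC1, the largest toward labelled-DKO villus (-0.90 ± 0.22). In the MYC network, with 11 of 18 listed, directions were split. Myc itself was higher in crypt (-1.06 ± 0.18) and in labelled-DKO villus (-0.67 ± 0.18) in the authors' deposited tables, and Ncl, the nucleolin gene and a known MYC target, stood at -1.16 ± 0.16 and -0.92 ± 0.16. Mxd1, which competes with MYC for MAX, was higher in villus by 2.03 ± 0.26, and Mxi1, another such competitor, was higher in WT than labelled-DKO villus by 1.12 ± 0.10. Among E-box members 3 of 10 were called higher in crypt, against 11 of 25 members with a promoter window and no E-box. For labelled-DKO villus the counts were 5 of 10 and 14 of 25.

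The integrated stress response genes, 11 of 25 listed, were called in both directions. The authors' deposited tables called 6 higher in villus and 2 higher in crypt, against 18.6% and 18.8% of all genes. Between the genotypes 5 were called toward WT and 2 toward labelled-DKO villus, against 22.4% and 29.5% of all genes. The 2 toward crypt and the 2 toward labelled-DKO villus did not exceed the shares of all genes. The list's medians were 0.49 and -0.04, against -0.04 and -0.08 over all genes. Atf4, the factor that drives synthetase genes in this response, was higher in villus than crypt (0.59 ± 0.20, DESeq2 adjusted p 0.0109) and higher in WT than labelled-DKO villus (0.50 ± 0.20, DESeq2 adjusted p 0.0222). Ppp1r15b, a regulatory subunit of the eIF2 phosphatase, was the most villus-high of the list (0.88 ± 0.15), and Aldh18a1, of proline synthesis, the most crypt-high (-0.65 ± 0.15). Cebpg, a dimer partner of ATF4, was the most WT-high (1.05 ± 0.14), and Ddit4, an mTORC1 inhibitor, the most labelled-DKO-high (-1.29 ± 0.33).

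**Figure D4:**
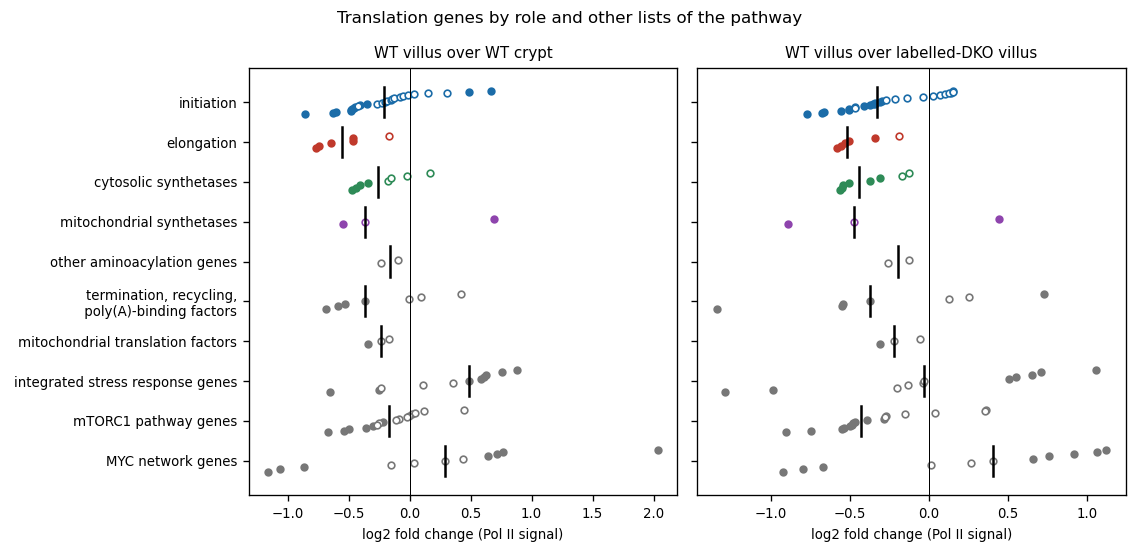
Log2 fold change of Pol II signal for single genes (points) by role of the members, in colour, and by other pathway lists, in grey, with each median as a bar; open points had an adjusted p of 0.05 or more, and the panels have separate scales. The elongation median lies at -0.56 on the left and -0.52 on the right, and that of the integrated stress response genes at 0.49 on the left and -0.04 on the right.

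No member differed by more than 1 on the log2 scale in any of the 3 comparisons, where 4.43%, 8.69% and 3.47% of all genes were called with such a change between villus and crypt, between the genotypes, and for labelled-DKO villus over crypt. With changes up to 0.5 as the null, Wald tests on the DESeq2 values called 0 members in each, and 3.92%, 9.91% and 1.40% of all genes. At an unadjusted p under 0.05 that test left Eif3a between villus and crypt, and Eif3a and Yars2 between the genotypes. In those directions it left 1.62% and 4.04% of all genes, near the members' shares.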

How the data were processed

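Pol II ChIP-seq of mouse duodenal epithelium was processed by the submitters with Bowtie2 2.2.6 on mm9, featureCounts and DESeq2 1.36.0, per the submitters' processing notes. The authors deposited 2 comparison tables of 6429 genes, in the DESeq2 results format per the file headers, with a mean signal (counts divided by size factors), log2 fold changes and their standard errors, Wald scores, p-values and adjusted p-values. The window counted and the gene filter are not given in the sources used here. Positions, an "other" unit, came from the authors' deposited window tables (featureCounts 2.0.3, read pairs, mapping quality of at least 30, no strand option, per the file headers). Their 18 per-library columns carry no names, were matched to no sample and were not used, so depth per library was not analysed here.

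Deposited adjusted p-values equalled a Benjamini-Hochberg adjustment over the table to within 3.76e-07. Signs follow the tables' names, and fold changes were taken as unshrunken. Each equalled its Wald score times its standard error. That match would also hold for shrinkage within the fit, so it cannot show that none was applied. The alternatives (an adjusted p under 0.01, centring, a limit of 1, a test against 0.5, a mean signal of 100, overlapping windows, another SE, a stricter pyrimidine start) were run with pandas 2.3.3 and scipy 1.17.1, after the steps were tested on simulated data. Leaving out replicates was not run. All members may be named. Full values went to Tpt1, Eef1a1, Eef2, the 4E-BPs, Eif2ak2 and, per role, the 3 called members with the largest change in each direction, and for other lists to the largest called change in each direction with Atf4, Myc and Pabpc1. Members, roles and lists were chosen with earlier results of these data known. Other members' values, the neighbours and the HNF4 and E-box motifs were chosen after values were seen.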

Additional observations from a re-analysis of the deposited data

How the results depend on the processing

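A limit of 1 on the log2 fold change left 0 members called in each comparison, against 23 for villus and crypt, 27 for the genotypes and 1 for labelled-DKO villus and crypt, and a Wald test on the DESeq2 values against changes up to 0.5 also left 0, 0 and 0. By construction both settings let fewer genes pass. For labelled-DKO villus against crypt, a mean signal of at least 100 gave 3 of 32 members (all genes 9.49% toward labelled-DKO villus) and a standard error rebuilt from the fit gave 7 of 44 (all genes 15.6% likewise), both near the share of all genes. The pyrimidine start required at the annotated base left 1 member in place of 8. Centring turned the sign of a pair of uncalled values, Mars1 between villus and crypt to 0.020 and Eif2ak2 between the genotypes to 0.043. Every other total of members called in either direction stayed within 1.5 times under the other settings run. The count higher in WT than labelled-DKO villus, 1 in the main setting, was 2 after centring and 0 without overlapping windows. No paired analysis was possible because the unnamed count columns bear no replicate number and the comparison tables hold group estimates alone. No result is checked against the loss of 1 library for the same reason.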

Other observations

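The deposited gene body windows differ by strand. For genes with 1 transcript on the plus strand, the window was 850 bp shorter than the RefSeq gene in the median, and on the minus strand it was 850 bp longer. On the minus strand it began 350 bp before the start and ended 500 bp past the end, so that it contained the promoter window, which it left out on the plus strand. The members divide into 22 on each strand. Of these, 8 on the plus and 12 on the minus strand were called higher in crypt than villus, and for labelled-DKO over WT villus the counts were 11 and 15. Over all genes with a position the crypt-high calls were 514 of 3053 on the plus strand and 686 of 3337 on the minus strand, and the labelled-DKO-high calls were 891 and 997 of the same genes. Whether the comparison tables rest on these windows is not stated, and a part of the windows in these counts was not tested.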
